A study of Mus musculus with 15 samples.

Results

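The genes described here encode the enzymes of glycolysis, of lactate and glycerol phosphate handling, and of glycogen synthesis and breakdown, in mouse gastrocnemius, a mostly fast muscle of the calf. They were chosen by name: 37 genes were listed, and each was followed through the probe set that carries its symbol alone, or, where there were several, the one with the highest mean over all 15 arrays. Such a probe set was found for 33 of them, out of 19938 genes so represented, and 32 of 12056 genes passed the filter on low values. Of those tested, 13 belong to glycolysis (17 were listed), 5 to lactate and glycerol phosphate, and 14 to glycogen (15 were listed). Gpi1, Pfkfb1, Gapdh and Eno1 had no probe set with their symbol alone and were not analysed here. Ppp1r3b, a glycogen targeting subunit of protein phosphatase 1, lay below the filter of 5.32 on the log2 scale, with group means from 4.97 to 5.13, and was not tested.

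All mice were male C57BL/6 animals, 12 months old, and each array held RNA of 1 mouse. Wildtype mice on the control diet gave 3 arrays. Wildtype mice on calorie restriction (CR), Sirt3 knockout mice on the control diet and Sirt3 knockout mice on CR gave 4 arrays each. The degree and length of the restriction, how the Sirt3 allele was made and which tissues it affects are not stated in the labels used here. Values are log2 array intensities, so a difference of 1 is a doubling of signal, and a level can be compared between arrays for 1 gene but not between genes. Precision is limited by the number of arrays. The design asks what CR did in each genotype, whether its effect depended on Sirt3, and what loss of Sirt3 did on either diet.

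Glycolysis splits glucose into pyruvate in the cytosol and yields ATP without oxygen. Lactate dehydrogenase then turns pyruvate into lactate, and glycerol phosphate dehydrogenase links the pathway to glycerol lipids and to the shuttle of reducing equivalents into mitochondria. Muscle stores glucose as glycogen, which phosphorylase breaks down when phosphorylase kinase switches it on, and which glycogen synthase builds. Protein phosphatase 1, held on the glycogen particle by its targeting subunits, reverses the phosphorylation of both enzymes. Fast fibres rely on these pathways during short bursts of work and hold more of most of these enzymes than slow fibres.

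The 250 bases before the start sites of the genes were read from RefSeq (GRCm38.p6), which held windows for 34 of the 37 listed genes, 49 in all. Gpd1, Ppp1ca and Ppp1r3b had none in that table. The 3 windows printed below belong to genes whose CR arrays all lay above their control arrays in both genotypes, and each is the window furthest upstream that the table lists for its gene. Of 6 such windows these 3 are shown because they hold a match to a motif below, and those of Aldoa, Tpi1 and Eno3 held neither. The RefSeq gene record of Ldha begins further upstream, at position 46842274, so its window lies inside the annotated gene. Capitals mark ACGTG, the core of the element bound by hypoxia inducible factors, and CAGCTG, an E-box form bound by MyoD, on either strand.
Ldha, lactate dehydrogenase A, chr7:46845554-46845803, plus strand: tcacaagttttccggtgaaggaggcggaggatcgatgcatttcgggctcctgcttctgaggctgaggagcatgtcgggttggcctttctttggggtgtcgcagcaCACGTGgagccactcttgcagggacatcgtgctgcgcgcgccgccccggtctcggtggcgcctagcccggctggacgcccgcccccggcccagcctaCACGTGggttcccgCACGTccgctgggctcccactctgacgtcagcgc
Pkm, pyruvate kinase M, chr9:59656326-59656575, plus strand: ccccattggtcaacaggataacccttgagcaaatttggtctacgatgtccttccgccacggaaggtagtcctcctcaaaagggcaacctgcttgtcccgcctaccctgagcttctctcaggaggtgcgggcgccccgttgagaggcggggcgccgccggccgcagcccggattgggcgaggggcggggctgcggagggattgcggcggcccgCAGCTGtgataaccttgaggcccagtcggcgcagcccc
Pygm, muscle glycogen phosphorylase, chr19:6384158-6384407, plus strand: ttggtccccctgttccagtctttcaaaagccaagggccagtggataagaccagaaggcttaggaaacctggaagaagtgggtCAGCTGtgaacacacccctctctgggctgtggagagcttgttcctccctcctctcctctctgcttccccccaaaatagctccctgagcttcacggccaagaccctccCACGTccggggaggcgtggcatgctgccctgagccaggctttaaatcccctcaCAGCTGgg
The Ldha window held 5 matches to ACGTG, 4 of them the 2 strands of its 2 CACGTG sites, an E-box form that several helix-loop-helix factors bind. The Pygm window held 1 match to ACGTG and 2 to CAGCTG, and the Pkm window 1 match to CAGCTG.

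Over all listed genes with a window, ACGTG was found for 15 of 34, or 44.1%, against 18.5% of the 27025 genes in the table, counting any window of a gene. CACGTG, which contains ACGTG on both strands, was found for 6 of them (17.6% against 6.86%), and CAGCTG for 10 (29.4% against 14.7%). TATAAA was found for 2 genes, Pfkfb1 and Ppp1r3a (5.88% against 14.3%). TCAGGTT, the core of the MEF3 motif, and the MEF2 motif were found for 1 gene each, Pfkl and Ppp1r3a (2.94% each, against 4.07% and 0.592%). Both strands were searched for each. These matches describe the letters of the windows and were not compared with binding data.

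The labels were checked on the targeted gene. Sirt3, a mitochondrial deacetylase, read 6.52 ± 0.11 on the wildtype arrays (SD, n = 7) and 5.57 ± 0.49 on the knockout arrays (SD, n = 8), with no overlap (exact permutation test over 6435 splits, two-sided p = 0.000622). The labels used here do not say which part of Sirt3 was removed, or whether its probe set lies there. All 15 genes of the fast fibre list, among them Actn3 and Mylpf, passed the filter on low values. So did all 11 of the slow fibre list, so passing it does not tell the fibre types apart. Transcripts of other tissues stood out on single arrays. Prm1, a protamine of sperm, read 11.82 on wildtype control replicate 3 and 11.40 on knockout control replicate 1, against 6.38 to 9.17 on the other arrays. Cela1, a pancreatic elastase, read 11.27 on wildtype control replicate 2 and at most 5.51 elsewhere, and Alb, the liver's albumin, was highest at 11.95 on wildtype CR replicate 4, with up to 11.36 elsewhere. Results below are given with and without the 2 arrays high in germ cell transcripts where a call changes, and the part of these tissues in the results was not tested.

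CR went with higher signal of many of these genes in both genotypes. Averaged over genotypes, 4 of 32 rose past the adjusted threshold of 0.05 (limma, Benjamini-Hochberg over all genes), against 0.647% of all genes: Ppp1ca, Gpd1, Tpi1 and Pkm. None fell, against 0.423% of all genes. At an unadjusted p under 0.05, 16 of 32 were higher, against 13.7% of all genes, and 2, Ldhb and Slc16a1, were lower, against 6.4%. In wildtype mice alone 1 of 32, Ppp1ca, rose past the adjusted threshold (0.108% of all genes rose and 0.0166% fell), and at an unadjusted p 10 were higher against 9.72% and 1 was lower against 3.4%. In knockout mice none of the 32 passed the adjusted threshold, which 0.0664% of all genes passed in limma, and at an unadjusted p 10 were higher against 6.79% and 2 lower against 5.17%. All CR arrays lay above all control arrays for 11 of the 32 in wildtype mice (9.55% of all genes) and for 10 in knockout mice (3.91%). For 8 of them this held in both genotypes, against 0.871% of all genes: Aldoa, Tpi1, Eno3, Pkm, Ldha, Gpd1, Pygm and Ppp1ca. Averaged over genotypes but without the 2 germ cell arrays, 2 of 32 rose (Gpd1 and Ppp1ca, against 0.158% of all genes). Leaving out the 4 arrays high in any other tissue left 1 wildtype control array, so only sizes are given. There Ppp1ca changed by 0.26, Gpd1 by 0.41, Tpi1 by 0.19 and Pkm by 0.22. With all arrays the changes were small, and the median change of the 32 averaged over genotypes was 0.13, against 0.03 over all genes. In tissue RNA, fewer cells of a type and less RNA per cell cannot be told apart.

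**Figure D1:**
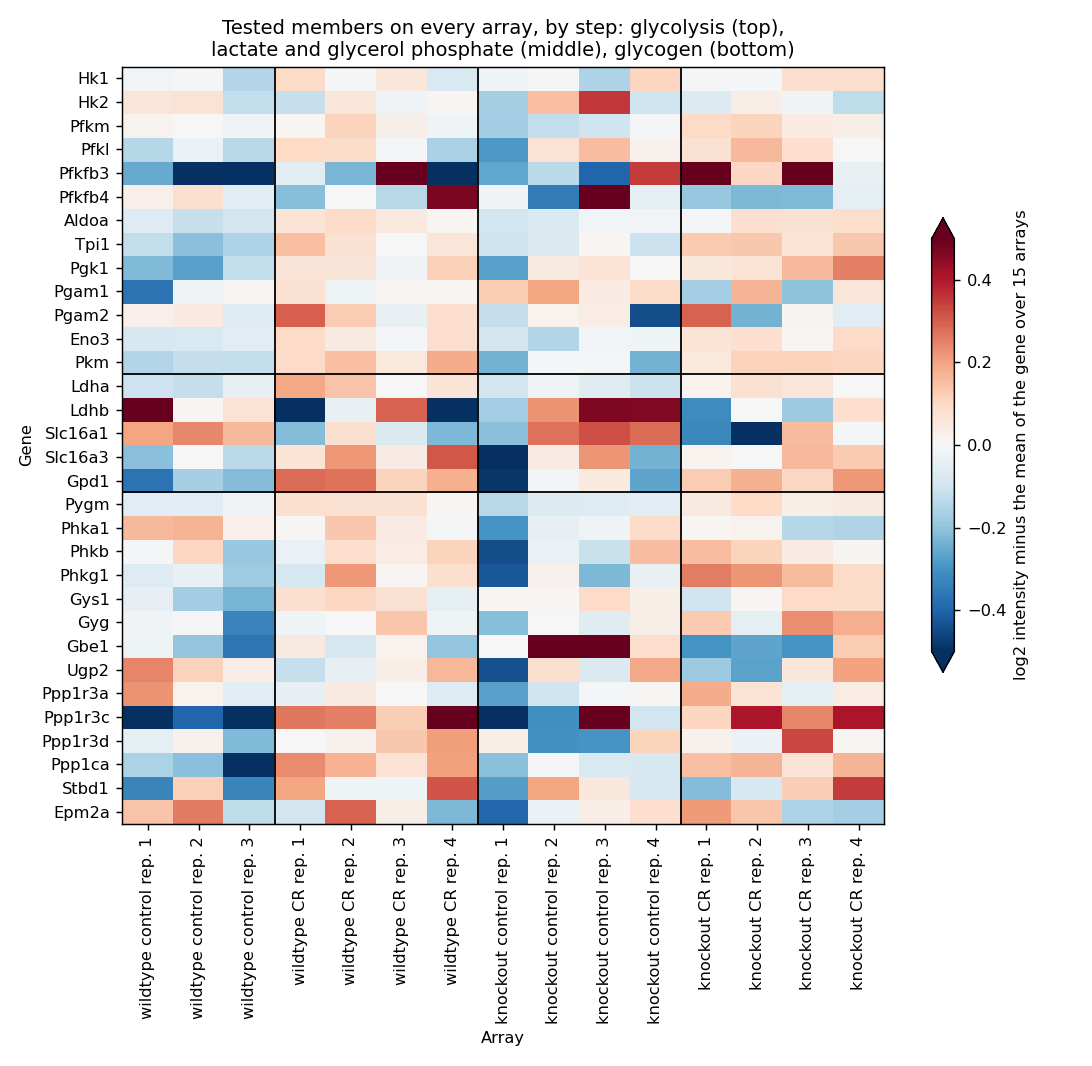
Each row is 1 of the 32 genes tested and each column 1 of the 15 arrays. Colour gives the log2 intensity minus the gene's mean over the arrays, with colours saturating at 0.5 in either direction. The CR columns are mostly above the gene's mean in rows such as Tpi1, Pkm, Gpd1 and Ppp1ca, and knockout control replicate 1 is low in many glycogen rows.

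Among the glycolytic enzymes, 2 of 13 rose with CR averaged over genotypes, Tpi1 and Pkm, against 0.647% of all genes. Tpi1, triose phosphate isomerase, read 12.03, 11.94 and 12.00 on the wildtype control arrays, in order of replicate number, and 12.30, 12.23, 12.15 and 12.21 on the wildtype CR arrays. In knockout mice it read 12.05, 12.08, 12.16 and 12.04 on the control diet and 12.28, 12.28, 12.22 and 12.29 on CR. No CR array overlapped a control array of its genotype. The change was 0.21 (SE 0.04, adjusted p = 0.0313), a ratio of 1.16. Pkm, which makes pyruvate and ATP in the last step, read 11.56, 11.59 and 11.59 on the wildtype control and 11.80, 11.86, 11.76 and 11.90 on the wildtype CR arrays. Its knockout arrays read 11.47, 11.70, 11.70 and 11.47 on the control diet and 11.76, 11.82, 11.82 and 11.82 on CR. The knockout control arrays formed a lower and a higher group of values, both below every CR array. The change was 0.24 (SE 0.05, adjusted p = 0.0348), and a second Pkm probe set gave 0.19.

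Other glycolytic enzymes were higher, by 0.13 to 0.22 for those given here, without passing the adjusted threshold. Pgk1, phosphoglycerate kinase, read 11.07, 11.01 and 11.16 on the wildtype control and 11.35, 11.35, 11.27 and 11.40 on the wildtype CR arrays, without overlap. The values of knockout mice were 11.02, 11.33, 11.35 and 11.29 on the control diet and 11.34, 11.35, 11.45 and 11.54 on CR. There the groups overlapped narrowly, and knockout control replicate 1 stood far below the others of its group. Its change averaged over genotypes was 0.22 (SE 0.06, adjusted p = 0.0758). Of its 3 probe sets 2 held identical values, and the third gave 0.21. Aldoa, aldolase A, read 13.10, 13.05 and 13.07 against 13.23, 13.26, 13.21 and 13.17 in wildtype mice, control arrays before CR arrays here and for the genes that follow. Knockout mice gave 13.07, 13.09, 13.15 and 13.15 against 13.16, 13.25, 13.24 and 13.25. Neither genotype overlapped, and the averaged change was 0.13 (SE 0.04, adjusted p = 0.0896). Eno3, the muscle enolase, read 12.58, 12.59 and 12.61 against 12.76, 12.71, 12.66 and 12.75 in wildtype mice. Readings in knockout mice were 12.58, 12.52, 12.65 and 12.65 against 12.74, 12.75, 12.68 and 12.76. These groups too were apart in both genotypes, with an averaged change of 0.13 (SE 0.04, adjusted p = 0.0985).

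The enzymes that commit glucose to the pathway varied less evenly. Pfkm, the muscle phosphofructokinase, was 0.03 (SE 0.06) higher on CR in wildtype mice, where the arrays overlapped, and 0.17 (SE 0.05, adjusted p = 0.24) higher in knockout mice, where they did not. Pfkl, the liver form, was 0.10 (SE 0.07) higher averaged over genotypes. Hk2, the insulin responsive hexokinase of muscle, was 0.06 lower (SE 0.07, log2 change -0.06), with every pair of groups overlapping. Pfkfb3 makes the sugar bisphosphate that activates phosphofructokinase, and it had the widest spread of the glycolytic genes. It read 8.49, 8.04 and 7.94 on the wildtype control and 8.69, 8.52, 9.52 and 7.78 on the wildtype CR arrays. In knockout mice it read 8.49, 8.61, 8.35 and 9.09 on the control diet and 10.52, 8.85, 9.59 and 8.71 on CR. The groups overlapped in both genotypes, and the averaged change of 0.63 (SE 0.28) had an adjusted p of 0.238. Its relative Pfkfb4 changed by -0.14 (SE 0.16), Pgam2, the muscle phosphoglycerate mutase, by 0.12 (SE 0.09) and Pgam1, the mutase found in most tissues, by 0.00 (SE 0.07), none past an unadjusted p of 0.05.

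The hexokinase Hk1 could not be followed with confidence. The probe set with the highest mean for that symbol rests on 1 sequence record, and that record also stands on 16 probe sets with several symbols, all of which list the ribosomal protein gene Rpl17. It gave an averaged CR change of 0.07 (SE 0.05). The other Hk1 probe set, named through RefSeq records, read 8.94 on wildtype control replicate 3 and 8.22 on knockout control replicate 1, and 5.82 to 6.60 on the other 13 arrays. Those are the 2 arrays on which Prm1 was highest. On that probe set the CR change was -0.85 (SE 0.39, unadjusted p = 0.0466, adjusted p = 0.243) averaged over genotypes, with all arrays. Apart from the 2 arrays high in Prm1, it read 6.09 and 6.36 on the wildtype control and 6.13, 6.10, 6.42 and 6.10 on the wildtype CR arrays. Its other knockout arrays read 6.60, 6.25 and 6.19 on the control diet and 5.96, 5.82, 6.20 and 6.22 on CR. Both genotypes overlapped there. The 2 arrays high in Prm1 also carried sperm forms of other glycolytic enzymes: Ldhc read 10.49 and 9.90 on them and at most 6.08 elsewhere, and Gapdhs 9.78 and 9.04 and at most 5.96 elsewhere. The part of germ cell RNA in the Hk1 signal was not tested.

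**Figure D2:**
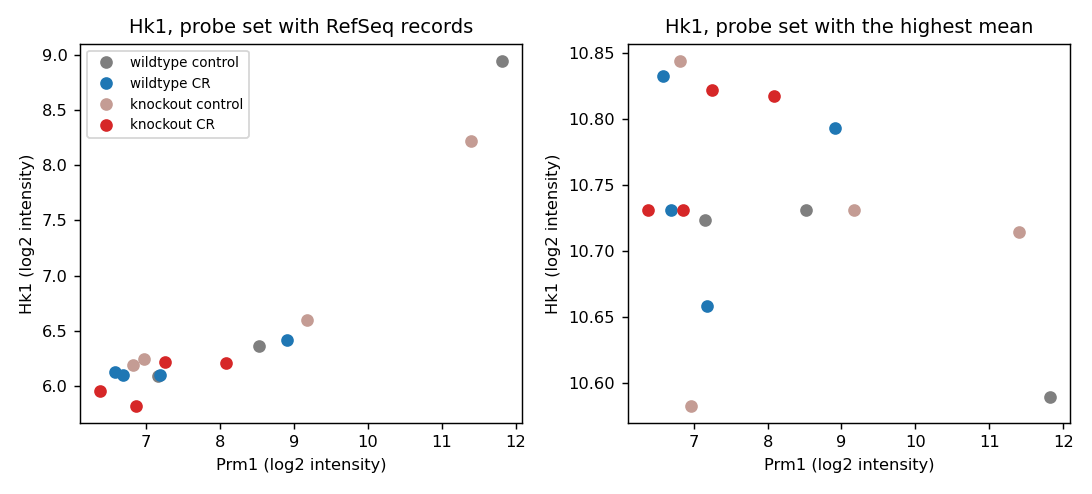
Each point is 1 array, coloured by group. The log2 intensity of Hk1 on its 2 probe sets is set against that of the sperm gene Prm1. On the probe set with RefSeq records (left) the 2 arrays at 8.94 and 8.22 are those at 11.82 and 11.40 for Prm1, and on the probe set with the highest mean (right) no array stands apart. The axes do not start at 0, and the right panel spans a far smaller range.

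Of the lactate and glycerol phosphate genes, 1 of 5 rose with CR averaged over genotypes, against 0.647% of all genes. Gpd1, the cytosolic glycerol phosphate dehydrogenase, read 10.16, 10.37 and 10.32 on the wildtype control and 10.81, 10.81, 10.64 and 10.71 on the wildtype CR arrays. Its knockout arrays read 10.05, 10.52, 10.58 and 10.27 on the control diet and 10.66, 10.71, 10.63 and 10.75 on CR. CR and control arrays were apart in both genotypes, and the knockout control arrays were the most scattered. The averaged change was 0.40 (SE 0.07, adjusted p = 0.0313), a ratio of 1.32. Without the 2 germ cell arrays it was 0.36 (adjusted p = 0.042). Ldha, the form of lactate dehydrogenase that predominates in fast muscle, read 12.14, 12.12 and 12.20 against 12.44, 12.38, 12.24 and 12.31 in wildtype mice. The values of knockout mice were 12.15, 12.22, 12.18 and 12.14 against 12.26, 12.32, 12.30 and 12.24. No CR array overlapped a control array, and the averaged change of 0.15 (SE 0.04) had an adjusted p of 0.0848.

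The heart form Ldhb and the lactate carrier Slc16a1 lay on the other side. Ldhb, which favours the use of lactate, read 9.58, 9.02 and 9.08 on the wildtype control and 8.30, 8.97, 9.30 and 8.23 on the wildtype CR arrays. Knockout mice gave 8.84, 9.23, 9.47 and 9.47 on the control diet and 8.69, 9.01, 8.83 and 9.09 on CR. The groups overlapped in both genotypes, the averaged change was -0.44 (SE 0.17, adjusted p = 0.172), and a second probe set gave -0.32. Slc16a1, the monocarboxylate transporter of oxidative fibres, read 7.92, 7.96 and 7.88 against 7.50, 7.80, 7.65 and 7.50 in wildtype mice, where all CR arrays were lower. Readings in knockout mice were 7.51 on replicate 1 of the control diet and 7.99 to 8.04 on the other 3, against 7.40, 7.06, 7.88 and 7.71 on CR, with overlap. Its averaged change was -0.34 (SE 0.12, adjusted p = 0.14). Slc16a3, the lactate exporter of fast fibres, changed in the opposite direction by 0.25 (SE 0.10, adjusted p = 0.202). The median CR change of 11 slow fibre genes was -0.33 in wildtype mice, -0.02 in knockout mice and -0.17 averaged over genotypes, where none passed even an unadjusted p of 0.05. The part of slow fibres in the values of Ldhb and Slc16a1 was not tested.

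Among the glycogen genes, 1 of 14 rose with CR, averaged over genotypes (against 0.647% of all genes) and in wildtype mice alone (against 0.108%). Ppp1ca, a catalytic subunit of protein phosphatase 1, which also acts on many other substrates, read 9.27, 9.22 and 8.92 on the wildtype control and 9.67, 9.60, 9.50 and 9.63 on the wildtype CR arrays. In knockout mice it read 9.22, 9.42, 9.35 and 9.35 on the control diet and 9.58, 9.60, 9.50 and 9.60 on CR. Control and CR arrays were apart in both genotypes, and the lowest array of all was wildtype control replicate 3, one of the germ cell arrays. The change was 0.46 (SE 0.08, adjusted p = 0.0499) in wildtype, 0.23 (SE 0.08, adjusted p = 0.26) in knockout and 0.35 (SE 0.06, adjusted p = 0.0163) averaged. Without the 2 germ cell arrays the averaged change was 0.27 (adjusted p = 0.0398), and the wildtype change was 0.35 (adjusted p = 0.124), which no longer passed the threshold.

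On the breakdown side, Pygm, muscle glycogen phosphorylase, read 12.88, 12.88 and 12.91 against 13.01, 13.01, 13.01 and 12.94 in wildtype mice. Its knockout arrays read 12.80, 12.86, 12.87 and 12.88 against 12.98, 13.03, 12.96 and 12.98. The groups did not overlap, and the averaged change was 0.12 (SE 0.03, adjusted p = 0.0984). Phkg1, the catalytic subunit of phosphorylase kinase, read 9.93, 9.96 and 9.82 against 9.91, 10.21, 10.01 and 10.08 in wildtype mice, with overlap. The values of knockout mice were 9.57, 10.02, 9.77 and 9.96 against 10.25, 10.22, 10.15 and 10.09, without overlap. Its change was 0.35 in knockout mice (SE 0.09, adjusted p = 0.216) and 0.25 averaged (SE 0.07, adjusted p = 0.0896). The regulatory subunits Phka1 and Phkb changed by -0.04 (SE 0.06) and 0.13 (SE 0.08), neither past an unadjusted p of 0.05.

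On the synthesis side the values were mixed. Gys1, muscle glycogen synthase, read 10.49, 10.36 and 10.30 against 10.61, 10.63, 10.61 and 10.48 in wildtype mice. Knockout mice gave 10.54, 10.54, 10.62 and 10.56 against 10.43, 10.54, 10.63 and 10.62. Its change was 0.20 (SE 0.07, adjusted p = 0.233) in wildtype and -0.01 (SE 0.06) in knockout mice. Gyg, glycogenin, the protein primer of the particle, read 10.99, 11.00 and 10.68 against 10.98, 11.01, 11.14 and 10.98 in wildtype mice. Readings in knockout mice were 10.79, 11.01, 10.95 and 11.04 against 11.14, 10.96, 11.24 and 11.19. The groups overlapped in both, with an averaged change of 0.16 (SE 0.06, adjusted p = 0.186). Ugp2, which makes the UDP-glucose for synthesis, changed by -0.05 (SE 0.10), and the branching enzyme Gbe1 is described with the difference between genotypes.

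The targeting subunit Ppp1r3c (PTG) had the widest range among the glycogen genes. It read 10.06, 10.20 and 9.93 on the wildtype control and 10.86, 10.85, 10.72 and 11.11 on the wildtype CR arrays, well apart. In knockout mice it read 9.54, 10.29, 11.36 and 10.50 on the control diet and 10.71, 11.00, 10.84 and 11.01 on CR. The lowest and the highest of all 15 arrays were both knockout control mice, replicates 1 and 3. The change was 0.82 (SE 0.28, adjusted p = 0.239) in wildtype, 0.47 (SE 0.26) in knockout and 0.64 (SE 0.19, adjusted p = 0.105) averaged. Without the 2 germ cell arrays it was 0.76 (SE 0.22) in wildtype, 0.17 (SE 0.19) in knockout and 0.46 (SE 0.15) averaged. Ppp1r3a, the large muscle targeting subunit, changed by 0.04 (SE 0.06), Ppp1r3d by 0.18 (SE 0.08), Stbd1, a glycogen binding protein, by 0.18 (SE 0.10), and Epm2a (laforin), a glycogen phosphatase, by 0.00 (SE 0.10), none past the adjusted threshold.

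**Figure D3:**
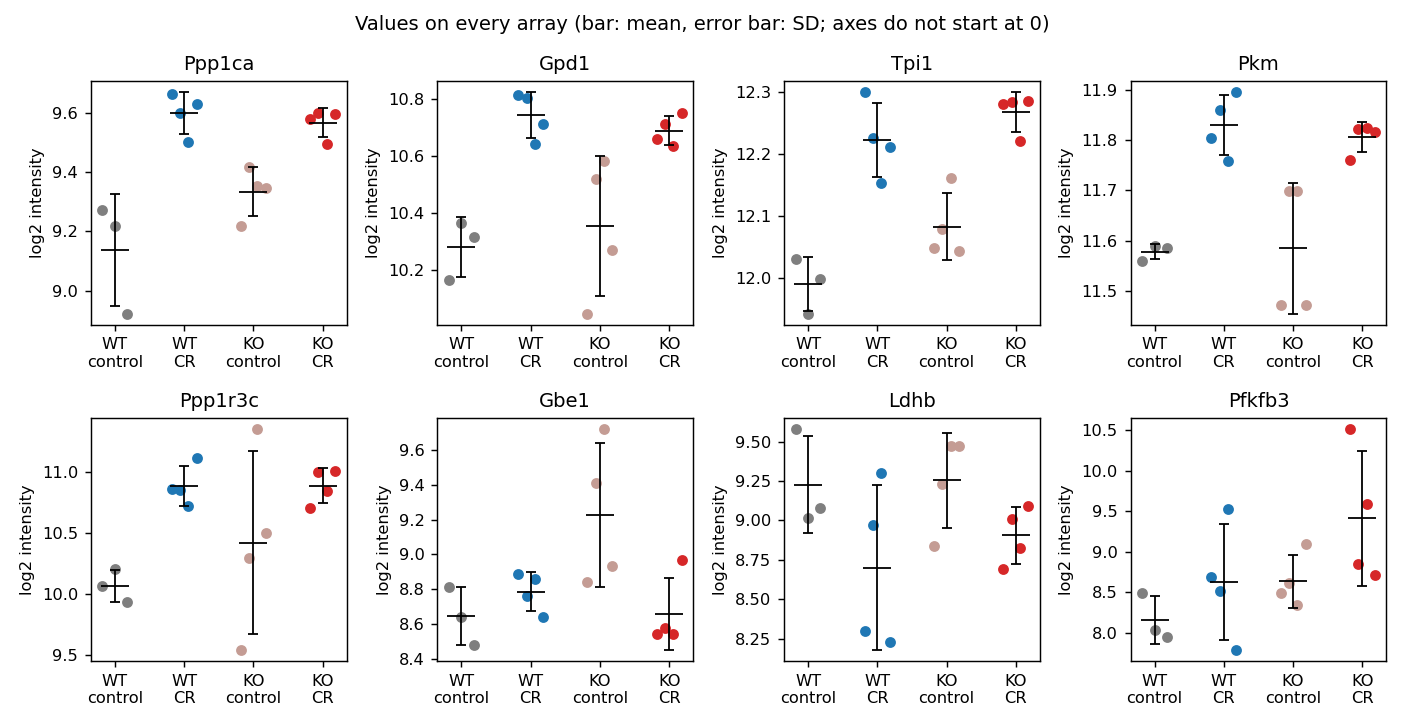
Points are the log2 intensities of 8 genes on each of the 15 arrays, bars the group means and error bars the SDs (n = 3 for wildtype control, 4 for the other groups; WT is wildtype and KO knockout). In the top row the CR arrays lie above all control arrays of the same genotype. In the bottom row at least 1 genotype overlaps, and the knockout control arrays of Ppp1r3c span 9.54 to 11.36.

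The 4 calls averaged over genotypes depended on single arrays to different degrees. Ppp1ca was called in each of the 15 fits that left out 1 array, Gpd1 and Tpi1 in 9 each, and Pkm in 4. Gpd1 lost its call without wildtype control replicate 3, wildtype CR replicate 1 or 2, or knockout CR replicate 2, 3 or 4, and its adjusted p reached 0.0739. Tpi1 lost its call without wildtype control replicate 2 or 3, wildtype CR replicate 1 or 2, or knockout CR replicate 2 or 4 (adjusted p up to 0.0739), and Pkm kept its call only without wildtype control replicate 1, knockout control replicate 2 or 3, or knockout CR replicate 1 (up to 0.0762 otherwise). Without the 2 germ cell arrays Tpi1 changed by 0.21 (adjusted p = 0.0731) and Pkm by 0.22 (adjusted p = 0.0807), below the threshold though hardly changed in size. The call of Ppp1ca in wildtype mice held in 3 of these 15 fits, those without wildtype control replicate 1 or 2 or knockout control replicate 1, and its change was 0.36 without wildtype control replicate 3 (adjusted p = 0.177).

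Set side by side with all arrays, the glycolysis and the glycogen genes had like median changes on CR. In wildtype mice the medians were 0.13 for glycolysis and 0.14 for glycogen, in knockout mice 0.13 and 0.14, and averaged over genotypes 0.12 and 0.13, against 0.04, 0.01 and 0.03 over all genes. At an unadjusted p under 0.05, averaged over genotypes, 7 of 13 glycolysis and 6 of 14 glycogen genes were higher and none of either was lower. The shares of all genes were 13.7% and 6.4%. Hk1 counts there by its probe set with the highest mean, and by its other probe set it was lower at that threshold with all arrays. Without the 2 germ cell arrays, the higher glycolysis genes at that threshold were Aldoa, Tpi1, Pgk1, Eno3 and Pkm. Of the glycogen genes, Pygm, Phkg1, Ppp1r3c and Ppp1ca were then higher and Gbe1 lower (-0.32, unadjusted p = 0.0188 in limma). The shares of all genes were not computed for that fit. Its glycolysis medians were 0.13 (Eno3) in wildtype mice, 0.10 (Pgk1) in knockout mice and 0.11 (Pgam2) averaged. The glycogen medians were lower than these and than with all arrays. In wildtype mice the glycogen median lay between 0.06 (Gbe1) and 0.10 (Ppp1r3d). It lay between 0.08 (Phkb) and 0.10 (Ppp1r3a) in knockout mice, and between 0.07 (Gys1) and 0.08 (Gyg) averaged. The 2 lists were thus less alike there, least so in wildtype mice. The mean deviation of each list from its average over the arrays was taken per mouse. For glycolysis it ran from -0.15 to -0.10 on the wildtype control and from -0.01 to 0.06 on the wildtype CR arrays. In knockout mice it ran from -0.13 to 0.07 on the control diet and from 0.05 to 0.16 on CR, with knockout control replicate 3 the highest control. For glycogen it ran from -0.23 to -0.02 and from 0.04 to 0.09 in wildtype mice, and from -0.29 to 0.06 and from 0.03 to 0.10 in knockout mice. The lowest glycogen arrays of both genotypes, at -0.23 and -0.29, were the 2 germ cell arrays. Of these, knockout control replicate 1 also stood apart for Pdk4, one of the further glycolysis and lactate genes. Pdk4 read 8.89 there and 11.95 to 12.73 on the other arrays. What set that array apart was not tested. No difference between the lists was tested.

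Fast fibre genes were set beside both lists. Of 15 such genes 4 rose with CR averaged over genotypes (Mylpf, Actn3, Pvalb and Tnni2), against 0.647% of all genes, with a list median of 0.12, while Myh2, the myosin of fast oxidative fibres, was at -0.26 (SE 0.09, adjusted p = 0.151). The list's mean deviation ran from -0.09 to -0.06 on the wildtype control and from -0.02 to 0.07 on the wildtype CR arrays, and from -0.06 to 0.01 and from 0.04 to 0.06 in knockout mice. These ranges do not overlap within a genotype. Among markers of other cells of the tissue none passed the adjusted threshold averaged over genotypes. The median change was -0.45 over 10 tendon genes and -0.28 over 10 macrophage genes, with 6 of each lower at an unadjusted p against 6.4% of all genes. It was 0.43 over 10 adipocyte genes, 4 of them higher at an unadjusted p against 13.7% of all genes. The medians of 10 endothelial and 5 nerve and Schwann cell genes were 0.03 and -0.01, with none past an unadjusted p. The part of fibre type and of these cells in the changes of the metabolic genes was not tested.

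**Figure D4:**
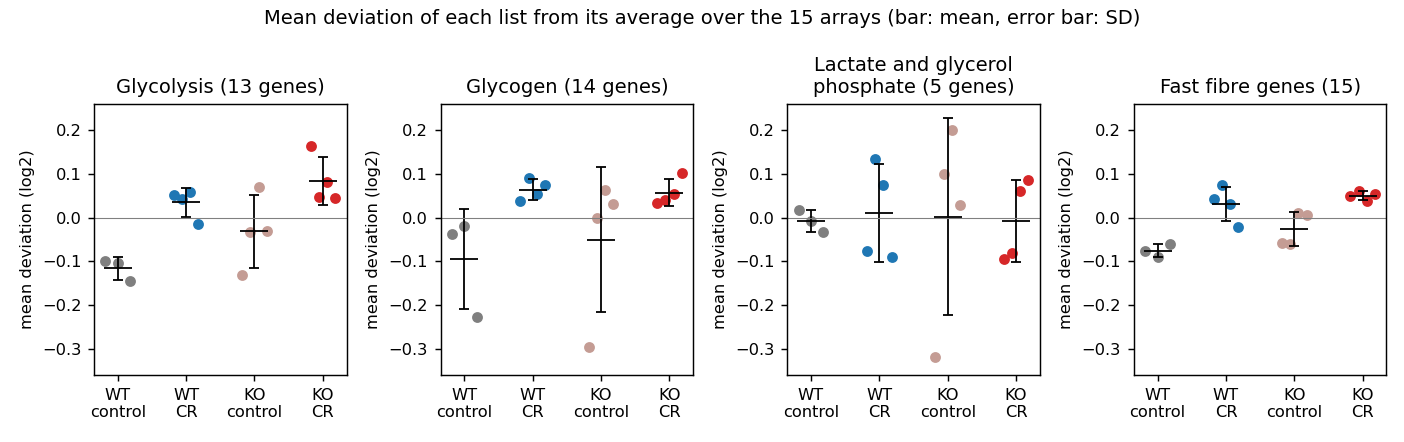
Points are arrays, and the vertical axis is the mean over a list's genes of the log2 intensity minus the gene's mean over all 15 arrays. Bars are group means and error bars SDs. The glycolysis, glycogen and fast fibre lists are higher on CR in both genotypes by group mean, the lactate and glycerol phosphate list has group means between -0.01 and 0.01, and knockout control replicate 1 is the lowest glycogen array at -0.29.

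Whether CR acted differently without Sirt3 was tested as the CR change in knockout minus that in wildtype mice. None of the 32 genes passed the adjusted threshold (0% of all genes in limma), and 2 had an unadjusted p under 0.05, against 5.71% of all genes. Gbe1, the branching enzyme of glycogen, read 8.82, 8.64 and 8.48 on the wildtype control and 8.89, 8.76, 8.86 and 8.64 on the wildtype CR arrays. Its knockout arrays read 8.84, 9.41, 9.72 and 8.93 on the control diet and 8.54, 8.58, 8.55 and 8.97 on CR. The knockout control arrays were the high ones, and knockout CR replicate 4 overlapped them. The CR change was 0.14 (SE 0.18) in wildtype and -0.57 (SE 0.17, adjusted p = 0.23) in knockout mice. The difference of responses was -0.71 (SE 0.25, unadjusted p = 0.0121, adjusted p = 0.828) and ranged from -0.84 to -0.54 when single arrays were left out. Gys1, with the values given above, differed by -0.21 (SE 0.09, unadjusted p = 0.038, adjusted p = 0.851).

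The next smallest p-values were those of Pgam1, Ppp1ca and Ppp1r3a. Pgam1 read 7.06, 7.41 and 7.43 against 7.50, 7.40, 7.43 and 7.43 in wildtype mice, and 7.55, 7.62, 7.47 and 7.51 against 7.25, 7.60, 7.22 and 7.48 in knockout mice. Its difference of responses was -0.29 (SE 0.14), and -0.17 without wildtype control replicate 1. That of Ppp1ca was -0.23 (SE 0.11), and -0.12 without wildtype control replicate 3. Ppp1r3a read 10.85, 10.64 and 10.57 against 10.58, 10.67, 10.62 and 10.56 in wildtype mice, and 10.35, 10.52, 10.62 and 10.63 against 10.81, 10.69, 10.58 and 10.66 in knockout mice, a difference of 0.23 (SE 0.12), which was 0.15 without wildtype control replicate 1. The groups of both genes overlapped on CR. For the 8 genes apart in both genotypes, the difference of responses ran from -0.23 (Ppp1ca) to 0.03 (Pygm), and none had an unadjusted p under 0.05.

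**Figure D5:**
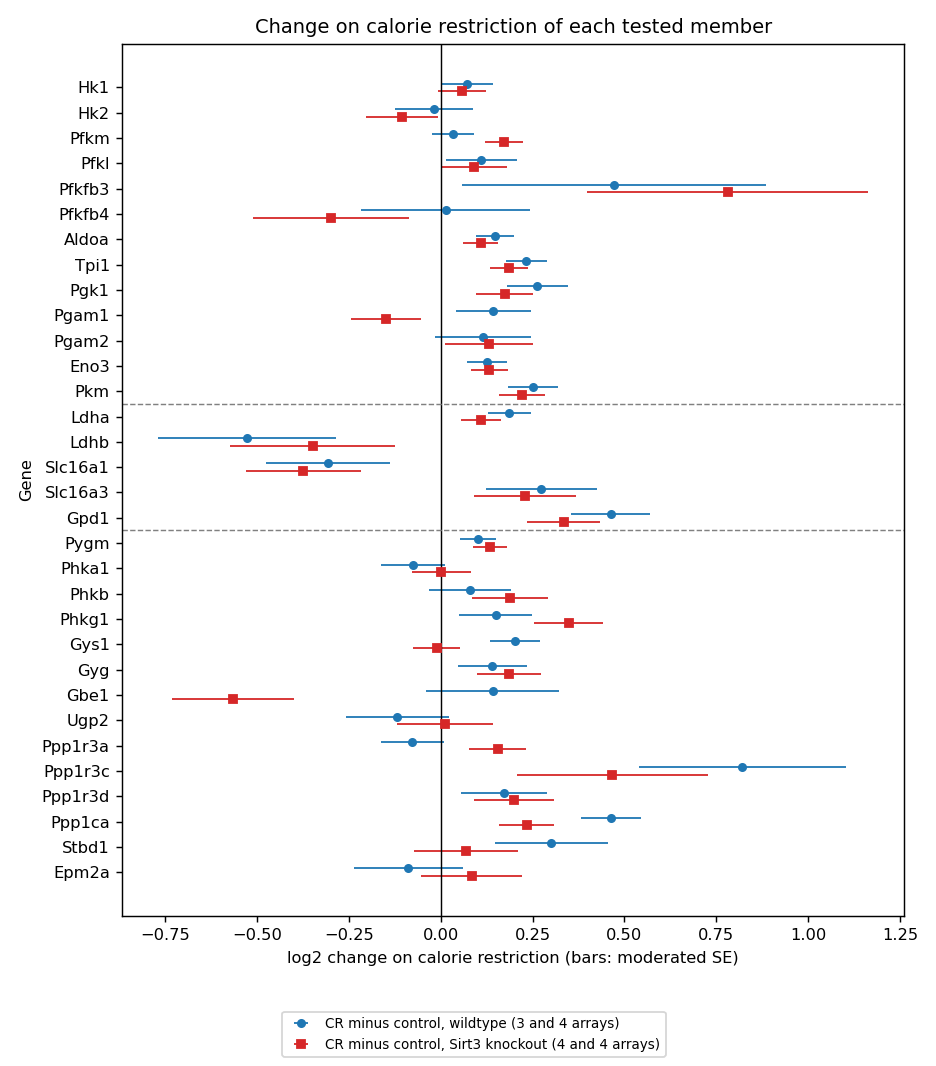
Points are log2 changes on CR of each tested gene in wildtype (circles) and Sirt3 knockout mice (squares), and error bars are moderated standard errors. The vertical line marks no change and dashed lines separate glycolysis, lactate and glycerol phosphate, and glycogen genes. Most points of both genotypes lie to the right of 0, Ldhb and Slc16a1 lie to the left in both, and Gbe1 is at 0.14 in wildtype and -0.57 in knockout mice.

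Knockout and wildtype mice were then compared on each diet. On the control diet none of the 32 passed the adjusted threshold (0% of all genes in limma), and 5 had an unadjusted p under 0.05, against 7.03% of all genes. Gbe1 was 0.58 higher in knockout mice (SE 0.18, adjusted p = 0.599), Gys1 0.18 (SE 0.07), Pgam1 0.24 (SE 0.10) and Ppp1ca 0.20 (SE 0.08). For 4 of the 32, Gbe1, Gys1, Pgam1 and Tpi1, every knockout control array lay above every wildtype control array, against 3.71% of all genes. Phka1, the muscle regulatory subunit of phosphorylase kinase, was the 1 lower, by a log2 change of -0.19 (SE 0.09). It read 11.13, 11.14 and 10.99 on the wildtype and 10.67, 10.92, 10.94 and 11.06 on the knockout control arrays, which overlap. The Gbe1 difference ranged from 0.41 to 0.71 when single arrays were left out, and that of Ppp1ca was 0.09 without wildtype control replicate 3. The Pgam1 difference was 0.12 without wildtype control replicate 1, and that of Phka1 was -0.11 without knockout control replicate 1. These comparisons share their control arrays with those of CR.

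On CR none of the 32 passed the adjusted threshold, which 0.0166% of all genes passed in limma, and none had an unadjusted p under 0.05, against 5.92% of all genes. The smallest p was that of Pfkfb3, which was 0.79 higher in knockout mice (SE 0.38, unadjusted p = 0.059), and 0.42 higher without knockout CR replicate 1, its highest array. Phka1 read 10.97, 11.10, 11.01 and 10.96 on the wildtype CR and 10.98, 10.98, 10.82 and 10.82 on the knockout CR arrays, a difference of -0.11 (SE 0.08). Phkg1, Gyg and Ldha followed, with differences of 0.13 (SE 0.09), 0.10 (SE 0.09) and -0.06 (SE 0.05). For all 32 genes the arrays of the 2 genotypes overlapped on CR. Among all 12056 genes, 222 were higher and 333 lower in knockout mice without overlap. Averaged over diets none passed the adjusted threshold (0% of all genes in limma) and 2 had an unadjusted p under 0.05, against 7.18% of all genes: Phka1 at -0.15 (SE 0.06) and Pfkfb3 at 0.63 (SE 0.28).

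Other genes of the pathways were taken from lists not restricted to those that moved. Of 22 further glycolysis and lactate genes tested, 1 rose with CR averaged over genotypes, against 0.647% of all genes: Pdk2, a kinase that switches off pyruvate dehydrogenase, by 0.21 (SE 0.04, adjusted p = 0.038). Pdk2 read 11.41, 11.35 and 11.29 against 11.56, 11.68, 11.62 and 11.48 in wildtype mice, and 11.34, 11.51, 11.47 and 11.48 against 11.60, 11.64, 11.66 and 11.66 in knockout mice, apart in both. At an unadjusted p, 6 of the 22 were higher and 2 lower, against 13.7% and 6.4% of all genes, shares that hold for the lists that follow too. After Pdk2 the smallest p-values were those of Slc2a4, the insulin responsive glucose carrier (0.18, SE 0.05, adjusted p = 0.0997), and Fbp2, the muscle fructose bisphosphatase (0.70, SE 0.20, adjusted p = 0.0997). Of 21 further glycogen genes none passed the adjusted threshold, and 5 were higher and 1 lower at an unadjusted p. The smallest p was that of Phka2, the liver form of the phosphorylase kinase subunit, at 0.27 (SE 0.07, adjusted p = 0.0814). Of 23 regulators of these pathways none passed, 3 were higher and 1 lower at an unadjusted p, and the smallest p was that of Hif1a, whose product binds the ACGTG core shown above, at -0.20 (SE 0.07, adjusted p = 0.143).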

How the data were processed

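Biotin labelled cRNA from the muscle of 15 mice was measured on Affymetrix arrays, per the labels. The deposited values are log2 intensities that the authors processed with RMA, per the submitters' processing notes; no version, scan day or other batch is given in the sources used here. The table held 35556 probe sets with array medians between 5.40 and 5.48, and was used without further normalization. Of these, 21789 had 1 gene symbol in the platform annotation, 1621 had several and were left out, and 12146 were not listed there. The filter removed genes whose mean was under 5.32, the 40th percentile over 23410 listed probe sets.

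The main test was limma 3.58.1 (R 4.3.3) on all 15 arrays, with group means and 7 contrasts (lmFit, eBayes; two-sided, Benjamini-Hochberg over 12056 genes within a contrast, threshold 0.05). Errors beside changes are moderated standard errors. Lists were described by counts and medians, with no test of a list. The fit was tested on simulated data. Motifs were searched and figures drawn in Python 3.11.15 with matplotlib 3.10.9. The members and lists were chosen with earlier results of these data known. Named were, for each contrast, members past the threshold and, where under 5 passed, the 5 with the smallest p, with up to 3 genes of each other pathway list, Sirt3, Prm1, Cela1 and Alb. The other members were named to account for all of them, and fibre, sperm enzyme and array details were chosen after their values were seen. The labels call the arrays biological replicates from individual mice. The alternatives tried were no filter, a 60th percentile filter, averaging the probe sets of a gene, quantile normalization, median centring, a trended robust prior, array weights, only the groups compared, the replicate number as a block, each array left out, and the arrays high in other tissues left out (2 for germ cell; 4 where the germ cell, acinar or liver list lay over 2 log2 units above the median array). A choice of probe set by RefSeq record was added after the Hk1 probe set was seen.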

Additional observations from a re-analysis of the deposited data

Results flagged for a closer look

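In 8 of 99 groups of 4 arrays looked at, 1 array lay so far from the others, relative to the group's range, that it passed Dixon's critical value, which chance gives in about 1 group in 20. In knockout CR mice, replicate 1 was lowest for Aldoa at 13.16 (the others 13.24 to 13.25) and for Pkm at 11.76 (the others 11.82), and replicate 3 was lowest for Tpi1 at 12.22 (the others 12.28 to 12.29). These 3 gaps are under 0.1 on the log2 scale, and all 3 values stay above every knockout control array. Gbe1 was highest on knockout CR replicate 4 at 8.97 (the others 8.54 to 8.58), and Ppp1r3d on knockout CR replicate 3 at 6.74 (the others 6.38 to 6.43). In wildtype CR mice, Pygm was lowest on replicate 4 at 12.94 (the others 13.01), which is the array highest in Alb, and Gyg was highest on replicate 3 at 11.14 (the others 10.98 to 11.01). Slc16a1 was lowest on knockout control replicate 1 at 7.51 (the others 7.99 to 8.04), one of the arrays high in germ cell transcripts.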

How the results depend on the processing

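Under the alternatives and left-out arrays no called value changed direction. Of the medians of the glycolysis and glycogen genes 371 recomputed values stayed within the spread of the main value, and 1 did not: the knockout against wildtype median for glycolysis on the control diet, 0.057, ran from 0.0299 (without knockout control replicate 3) to 0.104 (without knockout control replicate 1) when single arrays were left out. The count of members that rose with CR in wildtype mice, 1 (0.108% of all genes rose), became 0 under several settings. These were no filter (0.0201% of all genes), averaged probe sets (0.0669%), quantile normalization (0.0664%) and median centring (0.0332%). The replicate block (0.00829%), leaving out the 2 arrays high in germ cell transcripts (0.0166%) and using only the groups compared (0.00829%) also gave 0. The count ran from 0 to 2 when single arrays were left out, against 0.0249% to 0.274% of all genes. The count averaged over genotypes, 4 (0.647% of all genes rose), became 1 with no filter (0.0802%), 2 with quantile normalization (0.431%) and 1 with median centring (0.191%). It became 8 with a trended robust prior (0.854%), adding Aldoa, Eno3, Ldha and Pygm, and 5 with array weights (0.688%), adding Pgk1. With the replicate block it was 1 (0.149%), and without the 2 arrays high in germ cell transcripts 2 (0.158%). When single arrays were left out it ran from 1 to 5, against 0.108% to 1.25% of all genes. Why the counts changed was not tested for any setting. For the named genes, 868 recomputed values stayed on their side of the threshold, 60 lost the call and 2 gained one. Most of the 868 belong to genes without a call in the main fit, which had none to lose. Of the 15 fits without 1 array, Ppp1ca in wildtype mice kept its call in 3. Averaged over genotypes, Ppp1ca kept it in 15, Gpd1 and Tpi1 in 9 each and Pkm in 4. Without the 4 arrays high in other tissues the control groups keep 1 wildtype and 3 knockout arrays, and the lone array is assumed to vary like the other groups. Counts of members called in that fit are therefore not given. Without the 2 germ cell arrays, 11 of 32 members were higher and 3 lower at an unadjusted p under 0.05, averaged over genotypes. The share of all genes at that threshold was not computed for that fit. With all arrays 16 were higher and 2 lower, against 13.7% and 6.4% of all genes. Over 14 same-numbered pairs of arrays the correlation of deviations ran from -0.64 to 0.50, and 5 exceeded 0.1. Differently numbered pairs were not compared, so these values cannot tell whether replicate numbers pair the arrays. Choosing the Hk1 probe set by RefSeq record changed no count of adjusted calls. At an unadjusted p under 0.05, averaged over genotypes, 3 members were then lower instead of 2, with the share of all genes not computed. The fit on only the groups compared was not applied to averages or to the difference of responses, which need all 4 groups.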
